A study of Mus musculus with 6 samples.

Results

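The S phase and DNA replication genes examined here were 39 genes chosen by name for their known roles, which cover the licensing of replication origins, the replicative helicase, the polymerases and their clamp, and the supply of nucleotides. All 39 were found among the 54532 genes of the deposited expression table, and all 39 were expressed highly enough to enter the test, which held 17180 genes in all. Whole ovaries of C57BL/6 mice gave the RNA at 16.5 days post-coitus (dpc), and 3 libraries were sequenced from Ctrl and 3 from cKO mice. The cKO mice carried the *Stra8-GFPCre* transgene and *Srsf1* Fl/Fl alleles, so that *Srsf1*, a serine/arginine-rich splicing factor, was deleted in germ cells once they express *Stra8*, while the somatic cells kept the gene. The Ctrl mice are labelled wild type, and no other allele or agent is given for them. Values are given in the order of replicates 1, 2 and 3. The FPKM (reads scaled by gene length and library size) of *Srsf1* was 80.2, 70.1 and 63.1 for Ctrl and 32.4, 37.0 and 36.4 for cKO. Reads on genes were between 14212164 and 16784241 per library. Behind each S phase gene other than *Fen1* stood between 246 and 4701 reads per library.

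DNA replication starts with the loading of the MCM2-7 helicase onto origins by the origin recognition complex, CDC6 and CDT1, a step called licensing. In S phase the helicase is switched on by CDC45, the GINS complex and MCM10, and polymerases then copy the strands while the sliding clamp PCNA holds them on the DNA. Transcription of many of these genes rises at the start of S phase under E2F transcription factors. Female germ cells replicate their DNA for the last time before they enter meiotic prophase I, whereas the somatic cells of the fetal ovary go on dividing. A whole ovary holds both, so fewer cycling cells and less RNA per cell cannot be told apart in these libraries.

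To show what the genes share in sequence, the RefSeq promoter table (GRCm38.p6), which spans 250 bases before to 50 bases after each gene's start, was searched on both strands for 3 forms of the E2F motif, TTTCGCGC, TTTGGCGC and TTTCCCGC, and for the CCAAT box. The table held 32 of the 39 genes. The genes with no entry were *Mcm4*, *Gins1*, *Gins2*, *Gins4*, *Pole*, *Prim2* and *Rfc2*. At least 1 form of the E2F motif was found for 12 of the 32 genes, or 37.5%, and for 573 of all 27025 genes in the table, or 2.12%. The 12 genes were *Cdc6*, *Cdt1*, *Gins3*, *Lig1*, *Mcm3*, *Mcm5*, *Mcm6*, *Mcm7*, *Orc1*, *Pola1*, *Pold1* and *Rfc3*. A CCAAT box was found for 21 of the 32 genes, or 65.6%, and for 41.1% of all genes. The upstream stretches of 5 genes are shown with motif letters in capitals. *Mcm5* (chr8:75109259-75109508, plus strand) and *Mcm6* (chr1:128359706-128359955, minus strand) encode helicase subunits and hold overlapping E2F forms on opposite strands, *Cdc6* (chr11:98907982-98908150, plus strand) and *Pola1* (chrX:93632156-93632405, minus strand) hold 1 form each, and *Rrm2* (chr12:24708004-24708240, plus strand), the gene with the most negative fold change of the 39, holds a CCAAT box and none of the 3 E2F forms in these letters. Each is written 5′ to 3′ on the strand of its gene, and bases inside an annotated exon were left out.
Mcm5: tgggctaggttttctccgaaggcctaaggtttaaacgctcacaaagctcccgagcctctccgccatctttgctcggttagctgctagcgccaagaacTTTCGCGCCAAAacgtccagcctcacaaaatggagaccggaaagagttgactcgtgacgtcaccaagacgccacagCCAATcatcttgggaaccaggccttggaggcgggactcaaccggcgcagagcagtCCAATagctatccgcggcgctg
Mcm6: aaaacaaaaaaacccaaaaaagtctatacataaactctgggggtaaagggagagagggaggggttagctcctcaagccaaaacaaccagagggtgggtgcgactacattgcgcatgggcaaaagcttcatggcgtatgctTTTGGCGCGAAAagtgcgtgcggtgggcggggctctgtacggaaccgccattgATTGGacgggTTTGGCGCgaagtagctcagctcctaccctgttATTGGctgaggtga
Cdc6: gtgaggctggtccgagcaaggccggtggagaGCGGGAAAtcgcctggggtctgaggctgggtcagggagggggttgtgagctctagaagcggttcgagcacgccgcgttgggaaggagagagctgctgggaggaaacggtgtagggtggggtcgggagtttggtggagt
Pola1: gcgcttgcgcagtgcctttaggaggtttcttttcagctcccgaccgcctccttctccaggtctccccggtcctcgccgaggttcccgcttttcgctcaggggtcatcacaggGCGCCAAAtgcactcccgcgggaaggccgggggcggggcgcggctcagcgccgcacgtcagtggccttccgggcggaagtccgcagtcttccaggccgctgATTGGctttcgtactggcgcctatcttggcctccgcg
Rrm2: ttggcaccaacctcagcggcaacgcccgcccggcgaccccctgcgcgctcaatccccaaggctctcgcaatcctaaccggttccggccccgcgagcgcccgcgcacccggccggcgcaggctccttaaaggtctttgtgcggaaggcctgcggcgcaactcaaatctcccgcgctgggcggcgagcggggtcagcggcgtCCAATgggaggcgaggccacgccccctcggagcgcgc

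These matches describe letters in a window and do not show that a factor binds there. The log2 fold change, cKO against Ctrl, of the 12 genes with an E2F form ran from -0.54 to 0.31 with a median of -0.06, and it was below 0 for 6 of them. In the 20 genes with an entry and no such form it ran from -0.76 to 0.24 with a median of -0.23, and it was below 0 for 17. The difference between these sets of genes was not tested.

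To ask whether replication genes change when *Srsf1* is lost from germ cells, log2(FPKM + 1) was compared between cKO and Ctrl with limma over all 17180 genes tested. Of the 39 S phase genes, 1 passed an unadjusted p below 0.05, the limit of the study's methods. It was *Rfc5*, which was lower in cKO ovaries, and 0 genes were higher. This is 2.56% of the 39 genes, against 4.43% of all genes tested that passed in either direction, 1.75% that passed as lower and 2.68% that passed as higher. At an adjusted p below 0.05 (Benjamini-Hochberg, limma), 0 of the 39 genes passed, as did 0% of all genes. With limma voom on whole reads, 3 of the 39 genes passed the unadjusted limit, all lower (*Rfc5*, *Rpa1* and *Tyms*), and 0 passed the adjusted one. These are 7.69% of the 39 genes, against 4.04% of all genes that passed under voom in either direction and 2.01% that passed as lower. The adjusted p of the 39 genes in limma was between 0.978 and 0.998.

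The direction of the estimates was uneven although the single genes did not pass. The log2 fold change was below 0 for 28 of the 39 genes, or 71.8%, against 52.1% of all genes tested. Its median was -0.15 for the 39 genes and -0.01 for all genes. Without Ctrl 3 the median of the 39 genes was -0.26 and without cKO 2 it was -0.10. Groups did not overlap for 6 genes, or 15.4%, against 8.68% of all genes. All 6 were below Ctrl, and they were *Rpa1*, *Rfc5*, *Gins4*, *Prim2*, *Rfc2* and *Rfc3*. Genes of 1 pathway move together over the libraries, so these counts are not independent observations, and no test was made of the list as a whole.

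**Figure D1:**
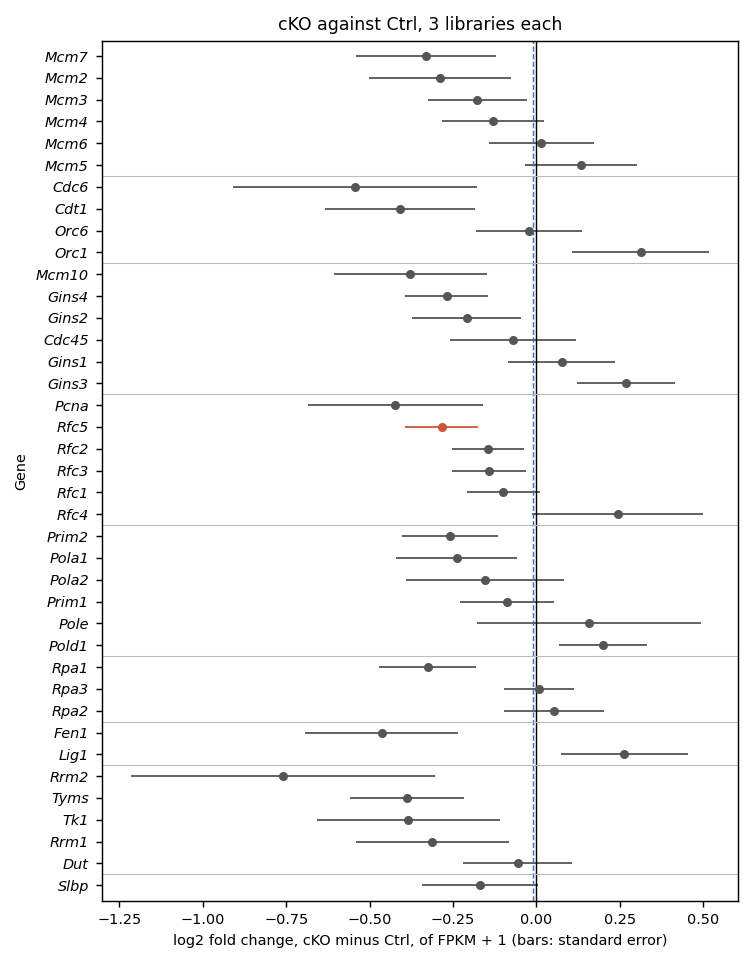
Log2 fold change of each S phase gene (cKO minus Ctrl, on log2(FPKM + 1)), 3 libraries a group, ordered by role from the MCM2-7 helicase at the top to *Slbp* at the bottom. Points are limma estimates, bars are standard errors, the dashed line is the median of all genes (-0.01), and the single gene past the unadjusted limit, *Rfc5* at -0.28, is in red.

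The 6 subunits of the MCM2-7 helicase, the ring that unwinds DNA at the fork, gave 0 genes past the limit, with log2 fold changes between -0.33 and 0.13. *Mcm7* had an FPKM of 53.8, 46.9 and 30.6 for Ctrl and 35.2, 34.0 and 31.9 for cKO. *Mcm2* had 27.2, 25.7 and 15.5 for Ctrl and 18.4, 17.4 and 18.1 for cKO. For both genes Ctrl 1 and Ctrl 2 were above every cKO library and Ctrl 3 was below every one. The log2 fold change was -0.33 with a standard error of 0.21 for *Mcm7* and -0.29 with a standard error of 0.21 for *Mcm2* (limma, unadjusted p = 0.158 and 0.217). *Mcm3* had an FPKM of 44.0, 45.7 and 34.6 for Ctrl and 39.2, 32.6 and 37.3 for cKO. *Mcm4* had 50.4, 45.4 and 36.5 for Ctrl and 43.6, 36.1 and 40.3 for cKO. In these genes Ctrl 1 and Ctrl 2 were again above the cKO libraries, by less, with log2 fold changes of -0.18 and -0.13. *Mcm6* had an FPKM of 63.7, 54.5 and 44.4 for Ctrl and 59.0, 51.4 and 52.5 for cKO. *Mcm5* had 40.3, 51.1 and 45.1 for Ctrl and 60.3, 42.1 and 48.5 for cKO. The groups of *Mcm6* and *Mcm5* overlapped, with log2 fold changes of 0.01 and 0.13. That of *Mcm6* was below 0 after quantile normalization and under voom. Of the exon bases of *Mcm7*, 12.6% also lie in exons of other genes.

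Levels within the helicase were compared per gene length. In Ctrl ovaries, the mean FPKM was 54.2 ± 9.63 (SD, n = 3) for *Mcm6*, 45.5 ± 5.39 for *Mcm5*, 44.1 ± 7.02 for *Mcm4*, 43.8 ± 11.9 for *Mcm7*, 41.4 ± 6.02 for *Mcm3* and 22.8 ± 6.35 for *Mcm2*. *Mcm6* was above *Mcm4*, *Mcm7* and *Mcm3* in every library of both groups, while its order with *Mcm5* changed between libraries. The order of *Mcm5*, *Mcm4*, *Mcm7* and *Mcm3* also changed between libraries. *Mcm2* was below each of the other subunits in every library of both groups. Its FPKM rests on a gene length of 6956 bases, against 3589 to 4666 for the others. This length joins all annotated exons and need not be that of the main transcript. In reads, *Mcm2* was above *Mcm3* and *Mcm4* in Ctrl 1 and Ctrl 2, and above *Mcm5* in Ctrl 1. It had the fewest reads of the subunits in Ctrl 3 and in every cKO library. How far *Mcm2* lies below the others thus depends on the length used.

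Among the genes that place the helicase on origins, 0 of 4 passed. *Cdc6*, an ATPase that joins the origin recognition complex to load the helicase, had an FPKM of 13.1, 11.7 and 4.23 for Ctrl and 5.34, 5.56 and 6.28 for cKO. Ctrl averaged 9.69 ± 4.79 (SD, n = 3) and cKO 5.73 ± 0.488, and the spread of Ctrl came from Ctrl 3, which was the lowest of all 6 libraries. *Cdt1*, the partner of *Cdc6* in loading, had 31.0, 22.5 and 16.3 for Ctrl and 15.5, 16.7 and 18.0 for cKO. The log2 fold change was -0.54 with a standard error of 0.37 for *Cdc6* and -0.41 with a standard error of 0.22 for *Cdt1* (limma, unadjusted p = 0.182 and 0.113). *Orc1*, the largest subunit of the origin recognition complex, had 6.55, 7.92 and 7.32 for Ctrl and 10.3, 6.58 and 11.5 for cKO. Its log2 fold change of 0.31 (standard error 0.21, limma, unadjusted p = 0.172) was the highest of the 39 genes, and cKO 2 lay inside the range of Ctrl. *Orc6* had a log2 fold change of -0.02. Of the exon bases of *Orc1*, 10.8% also lie in an exon of a gene on the other strand.

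The genes that switch the helicase on gave 0 of 6 past the limit. *Mcm10*, which is needed for the loaded helicase to start unwinding, had an FPKM of 5.48, 5.12 and 3.10 for Ctrl and 4.25, 2.65 and 2.88 for cKO, with a log2 fold change of -0.38 (standard error 0.23). The 4 GINS genes encode one complex, which travels with the helicase, and their estimates differed in sign. *Gins4* had an FPKM of 33.9, 27.9 and 27.1 for Ctrl and 23.6, 25.2 and 24.1 for cKO, with no overlap and a log2 fold change of -0.27 (limma, unadjusted p = 0.068). It passed the unadjusted limit after quantile normalization and without an FPKM minimum. *Gins3* had 6.84, 6.82 and 7.97 for Ctrl and 9.98, 7.37 and 9.46 for cKO, and its log2 fold change was 0.27 (limma, unadjusted p = 0.111). That of *Gins2* was -0.21 and that of *Gins1* 0.08. Of the exon bases of *Gins2*, 67.3% also lie in exons of *Gse1* on the other strand, so its value is uncertain. *Cdc45*, which joins MCM2-7 and GINS in the active helicase, had a log2 fold change of -0.07.

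PCNA, the ring that tethers polymerases to DNA, is loaded by replication factor C, whose 5 subunits are encoded by *Rfc1* to *Rfc5*. *Rfc5* (chromosome 5, 117378103 to 117389047, minus strand, GRCm38) was the only one of the 39 genes past the limit. Its FPKM was 9.81, 10.3 and 10.3 for Ctrl and 8.19, 7.65 and 8.63 for cKO, so that every cKO library was below every Ctrl library. Ctrl averaged 10.1 ± 0.288 (SD, n = 3) and cKO 8.15 ± 0.492, with a log2 fold change of -0.28 and a standard error of 0.11 (limma, unadjusted p = 0.0349, adjusted p = 0.978). The exact permutation test gave p = 0.1, two-sided, the smallest that 3 libraries against 3 allow. With 1 library left out, the unadjusted p of *Rfc5* stayed under 0.05 only without cKO 3, while the log2 fold change stayed between -0.32 and -0.24. Without Ctrl 1, Ctrl 2, Ctrl 3, cKO 1 and cKO 2 the p was 0.062, 0.106, 0.0954, 0.0789 and 0.0533. Of its exon bases, 10.7% also lie in an exon of *Wsb2* on the other strand.

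*Rfc2*, *Rfc3* and *Rfc1* had log2 fold changes of -0.14, -0.14 and -0.10, and the groups of *Rfc2* and *Rfc3* did not overlap. *Rfc4* stood apart from them, with an FPKM of 28.7, 31.3 and 33.9 for Ctrl and 43.9, 24.1 and 48.1 for cKO and a log2 fold change of 0.24. In *Rfc4* cKO 1 and cKO 3 were the highest libraries and cKO 2 the lowest. Of the exon bases of *Rfc2* and *Rfc4*, 15.1% and 12.7% also lie in an exon of a gene on the other strand.

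*Pcna* had the highest mean FPKM of the 39 genes. Its FPKM was 122, 88.1 and 60.2 for Ctrl and 71.6, 68.1 and 54.5 for cKO, with a log2 fold change of -0.42 and a standard error of 0.26 (limma, unadjusted p = 0.151). The reads of *Pcna* are uncertain because the table holds a copy on another chromosome, *Pcna-ps2*, with an FPKM of 1.33, 22.2 and 15.8 for Ctrl and 1.39, 0.569 and 40.9 for cKO. Summed over *Pcna* and *Pcna-ps2*, the reads were 4422, 3873 and 2872 for Ctrl and 2685, 2755 and 2587 for cKO. In these sums the 3 cKO libraries and Ctrl 3 lay close together and Ctrl 1 and Ctrl 2 above them.

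The polymerase genes gave 0 of 6 past the limit. *Pola1*, *Pola2*, *Prim1* and *Prim2* encode the polymerase alpha-primase complex, which starts each new strand, and their log2 fold changes were -0.24, -0.15, -0.09 and -0.26. *Pola1* had an FPKM of 6.85, 6.23 and 5.13 for Ctrl and 5.49, 3.76 and 5.84 for cKO, which overlapped. *Prim2* had 8.99, 8.18 and 7.73 for Ctrl and 7.59, 5.61 and 7.22 for cKO, which did not overlap (limma, unadjusted p = 0.115). The catalytic subunits that extend the strands, *Pole* for the leading and *Pold1* for the lagging strand, had log2 fold changes of 0.16 and 0.20. *Pole* varied widely within cKO, with 16.8, 6.53 and 12.0 beside 7.20, 10.7 and 12.2 in Ctrl.

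The genes of replication protein A, which coats single-stranded DNA also in meiotic recombination, gave 0 of 3 past the limit. *Rpa1*, its largest subunit, had an FPKM of 23.1, 21.4 and 16.6 for Ctrl and 16.4, 16.1 and 15.2 for cKO, so that the lowest Ctrl library lay just above the highest cKO library. Its log2 fold change was -0.33 with a standard error of 0.14 (limma, unadjusted p = 0.0602), and it passed the unadjusted limit under voom and after quantile normalization. *Rpa2* and *Rpa3* had log2 fold changes of 0.05 and 0.01.

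Lagging-strand fragments are trimmed by the flap endonuclease FEN1 and joined by DNA ligase I. *Lig1* had an FPKM of 40.1, 41.5 and 37.1 for Ctrl and 58.7, 35.9 and 51.3 for cKO, and its log2 fold change was 0.26 (standard error 0.19, limma, unadjusted p = 0.209). In *Lig1* cKO 2 was the lowest library and the other cKO libraries were the highest. *Fen1* was at the lowest mean FPKM of the 39 genes, with 1.73, 2.93 and 1.89 for Ctrl and 1.15, 1.94 and 0.872 for cKO. These values rest on 63, 115 and 80 reads in Ctrl and 43, 79 and 30 reads in cKO. The log2 fold change was -0.46 with a standard error of 0.23 (limma, unadjusted p = 0.0846). Of the exon bases of *Fen1*, 84.2% also lie in exons of *Gm10143* and *Tmem258* on the other strand, so the level of *Fen1* is uncertain.

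For the enzymes that supply nucleotides the log2 fold change was below 0 for all 5 genes with a median of -0.38, the lowest median of the roles, and 0 passed the limit. *Rrm2*, the regulatory subunit of ribonucleotide reductase whose level follows S phase, had an FPKM of 95.8, 63.1 and 24.7 for Ctrl and 26.5, 30.2 and 37.2 for cKO. Ctrl averaged 61.2 ± 35.6 (SD, n = 3) and cKO 31.3 ± 5.41, with a log2 fold change of -0.76 and a standard error of 0.46 (limma, unadjusted p = 0.141). Ctrl 1 and Ctrl 2 were above all cKO libraries and Ctrl 3 was below them. *Rrm1*, the catalytic subunit of the same enzyme, had 28.5, 20.5 and 14.8 for Ctrl and 16.2, 14.9 and 18.1 for cKO, and Ctrl 3 was again the lowest library. Within a library, the FPKM of *Rrm2* was 3.37, 3.08 and 1.67 times that of *Rrm1* in Ctrl 1, 2 and 3 and 1.63, 2.03 and 2.05 times in cKO 1, 2 and 3. The ratio thus spread more widely within Ctrl than within cKO. Its size depends on the gene lengths used, 2771 bases for *Rrm2* and 11012 for *Rrm1*. In reads, *Rrm1* was above *Rrm2* in every library.

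*Tyms*, which makes thymidylate, had an FPKM of 10.7, 8.85 and 6.78 for Ctrl and 6.14, 6.89 and 6.13 for cKO, and its log2 fold change was -0.39 (standard error 0.17, limma, unadjusted p = 0.0593). The groups of *Tyms* overlapped only between Ctrl 3 and cKO 2. *Tk1*, which salvages thymidine, had 14.7, 14.6 and 6.98 for Ctrl and 8.35, 9.60 and 7.89 for cKO, and its log2 fold change was -0.38 (standard error 0.27). Ctrl 3 was the lowest library for *Tk1*. *Dut*, which keeps uracil out of DNA, had a log2 fold change of -0.06. *Slbp*, which binds the stem-loop of replication-dependent histone mRNAs, had an FPKM of 29.4, 23.5 and 20.3 for Ctrl and 21.8, 18.3 and 24.5 for cKO, which overlapped (log2 fold change -0.17).

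**Figure D2:**
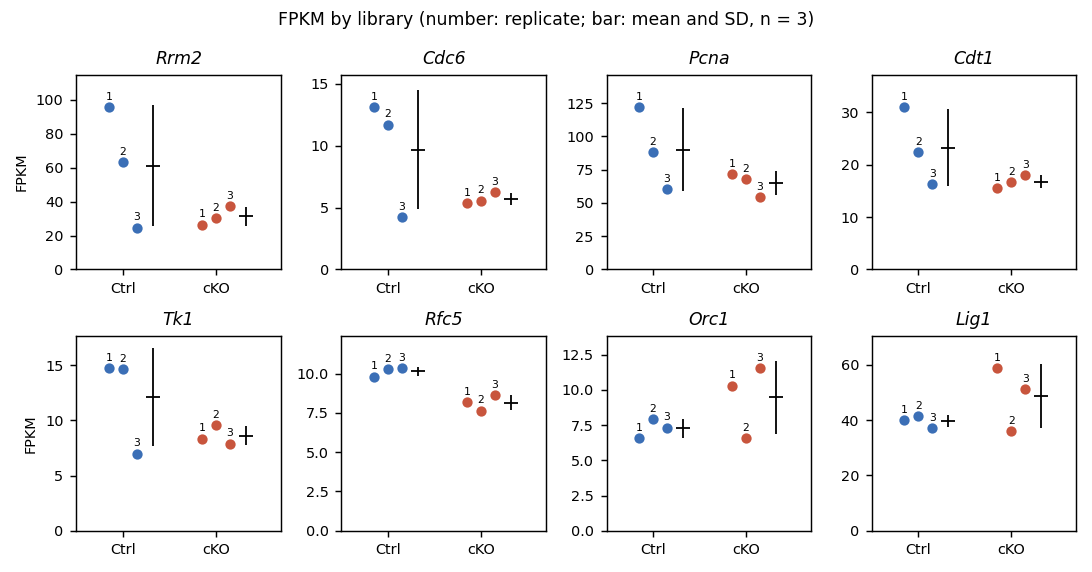
FPKM of 8 S phase genes in each library (vertical axes, starting at 0), with Ctrl in blue and cKO in red, the replicate number above each point, and the mean and SD (n = 3) beside it. *Rrm2*, *Cdc6*, *Cdt1* and *Tk1* show Ctrl 3 near the cKO libraries, *Rfc5* shows 2 groups without overlap, and *Orc1* and *Lig1* show cKO 2 below cKO 1 and cKO 3.

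Read across libraries rather than between groups, the genes showed orders that were noticed in the values and not tested. Ctrl 1 was the highest library for 22 of the 39 genes, and Ctrl 3 and cKO 2 were the lowest for 11 and 14. The highest and lowest library were not counted over all genes, so these counts may not be particular to the S phase genes. Both Ctrl 1 and Ctrl 2 lay above all 3 cKO libraries for 21 of the 39 genes, against 10.7% of all genes tested. These genes include 4 of the 6 helicase subunits and 4 of the 5 nucleotide enzymes. For 5 of the 39 genes, *Orc1*, *Gins3*, *Rfc4*, *Pold1* and *Lig1*, cKO 1 and cKO 3 lay above the other 4 libraries. That share of the 39 genes was not above the 14.8% of all genes with this order. The median SD of log2(FPKM + 1) over the 39 genes was 0.199 within Ctrl and 0.190 within cKO.

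**Figure D3:**
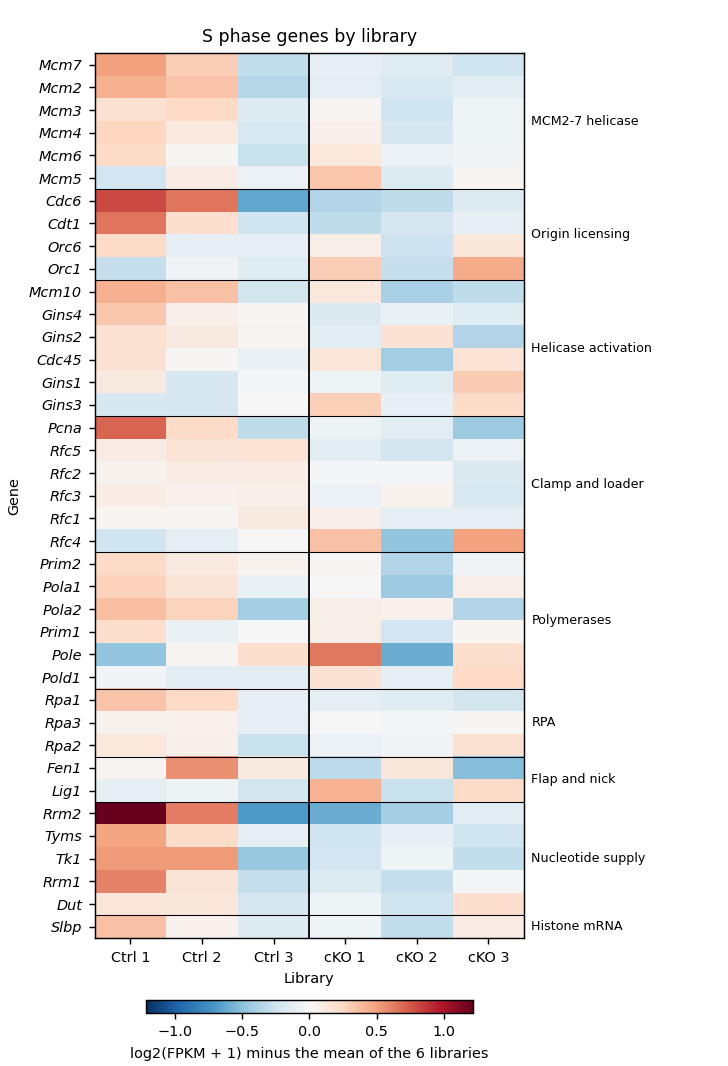
Log2(FPKM + 1) of the 39 S phase genes (rows, grouped by role) in the 6 libraries (columns), each minus its mean over the libraries, with red above and blue below the mean. Ctrl 1 is the highest library for 22 genes, and the rows of *Rrm2*, *Cdc6* and *Tk1* show Ctrl 3 among the blue columns.

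The number of S phase genes past the limit therefore rested on single libraries. Without Ctrl 3, 11 of the 39 genes, or 28.2%, passed the unadjusted limit in limma, all lower in cKO, against 6.85% of all genes. They were *Rrm2*, *Cdc6*, *Tk1*, *Pcna*, *Cdt1*, *Mcm10*, *Mcm7*, *Tyms*, *Rrm1*, *Mcm2* and *Rpa1*, with log2 fold changes from -1.30 for *Rrm2* to -0.46 for *Rpa1*. Without Ctrl 1 the log2 fold changes of the same 11 genes lay closer to 0, from -0.34 for *Rrm2* to -0.087 for *Rrm1*, with -0.28 for *Cdc6*, -0.19 for *Cdt1* and -0.18 for *Pcna*. Without cKO 2, 7 of the 39 genes passed, or 17.9% against 14.5% of all genes. Of these, *Rfc4*, *Orc1*, *Lig1*, *Gins3* and *Pold1* were higher in cKO, with log2 fold changes between 0.31 and 0.54, and *Fen1* (-0.65) and *Gins2* (-0.35) were lower. Without Ctrl 1, Ctrl 2 or cKO 1, 0 of the 39 genes passed, and without cKO 3 it was *Rfc5* alone. At the adjusted limit, 0 of the 39 genes passed without any one library.

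Other genes of the same pathway were read in the same fit. Of 46 further replication genes, among them the other subunits of the origin recognition complex and of the polymerases, the checkpoint proteins of the fork and the chromatin assembly factors, 1 passed the unadjusted limit in limma, against 4.43% of all genes, and 5 passed under voom, against 4.04%. Without cKO 2, 10 of the 46 passed in limma, against 14.5% of all genes. The gene that passed in limma with all 6 libraries was *Dscc1*, a subunit of an alternative clamp loader. It had an FPKM of 3.73, 3.31 and 2.69 for Ctrl and 2.44, 2.15 and 2.10 for cKO. Its log2 fold change was -0.39 with a standard error of 0.15 (limma, unadjusted p = 0.0333, adjusted p = 0.978), and the groups did not overlap. The median of the 46 genes was -0.08, with 27 below 0. Of 27 genes that control entry into S phase (E2F and RB family genes, cyclins, their kinases and inhibitors), 0 passed in limma and 3 under voom, with a median of -0.09 and 18 below 0. Of 20 genes of G2 and mitosis, 0 passed in limma and 5 under voom, with a median of -0.30 and 15 below 0. For all genes tested the shares were 4.43% past the limit in limma, 4.04% under voom and 52.1% below 0.

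The library order of the S phase genes can be set beside that of other lists as the mean of log2(FPKM + 1), centred over the 6 libraries. The 39 genes were at 0.23, 0.14 and -0.14 for Ctrl and 0.00, -0.19 and -0.03 for cKO. The G2 and mitosis genes were at 0.49, 0.02 and -0.14 for Ctrl and -0.08, -0.39 and 0.10 for cKO, so both lists were highest in Ctrl 1 and lowest in cKO 2. This order was not shared by the other lists of the cell cycle. The further replication genes were highest in cKO 1 (0.10, beside 0.07 in Ctrl 1) and lowest in cKO 2 (-0.21). The genes of S phase entry were highest in Ctrl 1 (0.36) and lowest in cKO 1 (-0.18). The cell types of the libraries moved as well. The 14 germ cell markers were at -1.05, -0.19 and 0.66 for Ctrl and 0.52, -0.59 and 0.64 for cKO, where the low libraries are Ctrl 1 and cKO 2. All 14 were above 0 FPKM in each library, and their summed FPKM was between 188 and 714 in Ctrl and between 296 and 899 in cKO. Of these markers *Dazl* (log2 fold change 1.60) and *Dppa3* (1.34) were higher and *Tdrd9* (-1.32) was lower in cKO at the unadjusted limit.

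Red blood cell markers, of which 9 of 10 are in the table and none was at 0 in any library, were at 1.56, 0.19 and -0.73 for Ctrl and -1.83, 0.20 and 0.61 for cKO. Their summed FPKM was between 4902 and 23354 in Ctrl and between 1704 and 10475 in cKO. Within Ctrl, the red blood cell markers and the S phase genes had the same order, with Ctrl 1 highest and Ctrl 3 lowest. Pregranulosa, immune and endothelial markers and the other replication and cell cycle lists shared this order, while stromal and germ cell markers did not. Within cKO the highest library of the S phase genes, cKO 1, was the lowest of the red blood cell, pregranulosa and immune markers. Of the 9 red blood cell markers, *Hbb-y* (log2 fold change 2.10) was higher in cKO at the unadjusted limit. Pregranulosa cell, stromal, immune and endothelial markers were detected in every library, and their centred list means lay between -0.41 and 0.31. The part of these cell types in the levels of the S phase genes was not tested.

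**Figure D4:**
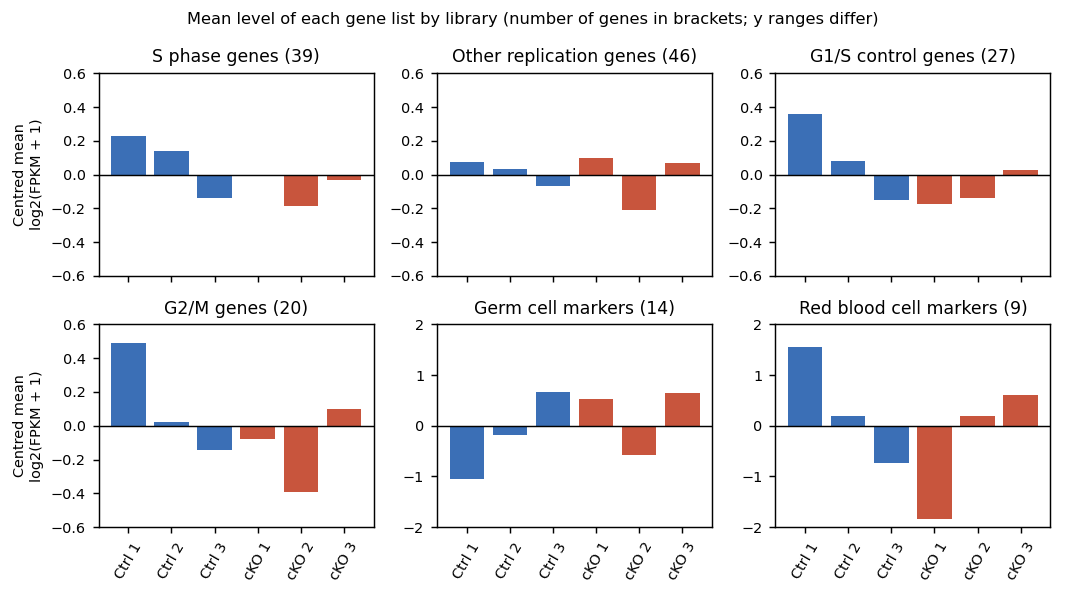
Mean log2(FPKM + 1) of 6 gene lists in each library (bars, centred over the 6 libraries, with Ctrl in blue and cKO in red), where the germ cell and red blood cell panels have a wider vertical range than the others. The S phase genes run from 0.23 in Ctrl 1 to -0.19 in cKO 2, while the germ cell markers are lowest in Ctrl 1 and the red blood cell markers highest there.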

How the data were processed

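Poly-A mRNA, selected from the total RNA of whole ovaries, was sequenced in 6 libraries, 3 per group, with group and number as in the sample titles. A protocol label names another tissue than ovary. The authors aligned paired-end reads with HISAT2 (2.0.5) to mm10, counted them with featureCounts and deposited FPKM, that is, reads scaled by gene length and by library size. The sources used here neither name the annotation release nor say whether strand was used. Whole reads were worked out from FPKM and gene length (100% within 0.05 of a read). Counting error is largest for *Fen1*.

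The 39 genes and all lists were chosen with earlier results of these data known. The cKO and Ctrl libraries were compared with limma 3.58.1 in R 4.3.3, two-sided with an intensity trend, on log2(FPKM + 1) for genes averaging at least 0.5 FPKM. This scale understates the change of low genes. The methods call the libraries biological replicates, and p-values measure the spread between these samples. Named genes were those past the unadjusted limit, the 3 highest and 3 lowest by fold change and by level, and a fixed set of core replication genes. The fit was tested on simulated data. Alternatives were pseudocounts of 0.1 and 0.5, other FPKM minimums, median-ratio and quantile scaling, voom, no trend, a replicate block and each library left out. Overlaps used GENCODE M21, whose exon lengths equal the deposited gene length for 38 of the 39 genes. Python 3.11.15 was used for tables and figures.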

Additional observations from a re-analysis of the deposited data

How the results depend on the processing

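The count of S phase genes past the unadjusted limit was 1, lower in cKO, with either other pseudocount, a minimum FPKM of 1, median-ratio scaling or no intensity trend. It was 2 without a minimum FPKM, 3 after quantile normalization and 3 under voom, all lower. These are 5.13%, 7.69% and 7.69% of the 39 genes. Of all genes, 595 of 33797, 284 of 17180 and 345 of 17180 were lower in these settings. With each library left out the count was between 0 and 11 for lower S phase genes and between 0 and 5 for higher ones. The 11 came without Ctrl 3, where 628 of all 17180 genes were lower. The 5 came without cKO 2, where 1457 of all 17180 genes were higher. The further replication genes past the limit numbered 0 after quantile normalization, 5 under voom and between 0 and 10 with a library left out. The genes of S phase entry numbered 1 at a pseudocount of 0.1, 0.5 or a minimum FPKM of 1, 3 under voom and between 0 and 6 with a library left out. The G2 and mitosis genes numbered 1 without a minimum FPKM, 2 after quantile normalization, 5 under voom and between 0 and 6 with a library left out. For both of these lists the 6 came without Ctrl 3, where 6.85% of all genes passed. Over all genes, 736 were higher and 595 lower without a minimum FPKM, where more genes were tested, and with a library left out between 201 and 1457 were higher and between 163 and 1036 lower. Some of these settings also test more or fewer genes or libraries, and the cause of the changed counts was not tested. The median log2 fold change of the S phase genes stayed below 0 under each alternative, between -0.26 and -0.10 with a library left out.

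Signs turned for genes close to 0, and also for *Mcm5* (log2 fold change 0.13) and *Pole* (0.16, standard error 0.34). *Mcm6* was at -0.0043 after quantile normalization and -0.0057 under voom, and *Rpa3* at -0.0022 and -0.013. With a library left out, log2 fold changes ran from -0.0035 to 0.25 for *Mcm5*, -0.12 to 0.14 for *Mcm6*, -0.15 to 0.0063 for *Prim1*, -0.17 to 0.12 for *Cdc45*, -0.17 to 0.049 for *Dut*, -0.099 to 0.10 for *Orc6*, -0.044 to 0.038 for *Rpa3*, -0.072 to 0.13 for *Rpa2*, -0.059 to 0.17 for *Gins1* and -0.13 to 0.50 for *Pole*.

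Groups share replicate numbers, and the sample titles do not say whether these numbers pair the samples. Deviations of same-numbered libraries correlated at -0.389, -0.0297 and 0.117, and only cKO 3 correlated best with its own number. With 3 libraries a group, such correlations cannot decide whether samples were paired. With the replicate number as a block, 1 S phase gene passed, *Fen1* (log2 fold change -0.46, unadjusted p = 0.0383), in place of *Rfc5* (unadjusted p = 0.087).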

Other observations

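Values of a few regulators of replication, named after their values were seen, are given here for comparison. *Ccne1*, a cyclin that drives entry into S phase, had an FPKM of 19.8, 17.8 and 9.33 for Ctrl and 9.35, 9.16 and 10.2 for cKO (log2 fold change -0.59, limma, unadjusted p = 0.0601). Its paralogue *Ccne2* had 15.99, 12.4 and 17.2 for Ctrl and 27.1, 12.2 and 34.1 for cKO (log2 fold change 0.55, limma, unadjusted p = 0.167). *E2f8*, an E2F family repressor, had 15.8, 8.09 and 3.96 for Ctrl and 2.70, 3.65 and 4.48 for cKO (log2 fold change -1.004, limma, unadjusted p = 0.0502). *Ccne1* and *E2f8* had the order of *Rrm2* within Ctrl, while *Ccne2* was highest in cKO 1 and cKO 3, as *Orc1* and *Rfc4* were. Those libraries were also the highest for 14.8% of all genes tested. *Mcm8*, an MCM relative with a part in meiotic recombination, had 6.58, 12.4 and 18.4 for Ctrl and 21.3, 9.31 and 17.5 for cKO, lowest in Ctrl 1 and cKO 2, where the germ cell markers were lowest. None of these differences passed the unadjusted limit in limma on log2(FPKM + 1) with all 6 libraries and a minimum of 0.5 FPKM. The alternative settings were counted by list and are not given here for these genes.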
